A study of Oryctolagus cuniculus with 18 samples.

Results

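The atherosclerotic aortas of the series were 9 of its 18 samples, chosen by their group label, and the 84 genes of interest (GOIs) of the rabbit wound healing PCR array were described in them one by one and in pairs. The remaining assays, ACTA2, ACTB, GAPDH, LDHA and LOC100346936, are the 5 reference genes. The rabbits were male New Zealand White animals, aged 11 weeks at the start. The atherosclerotic group had its aortic endothelium stripped with a balloon catheter in 2 surgeries, 3 weeks apart, and received chow with 0.30% cholesterol for 8 weeks, then 0.15% for 12 weeks. The labels place the diet after surgery, whereas the methods start it before the first surgery. RNA came from the lower abdominal aorta, just above its division into the iliac arteries. All lesions therefore arose from diet and denudation together, and the contributions of these 2 treatments cannot be told apart. The 9 control rabbits had regular chow and no surgery, and are mentioned only where a value beside the lesions is useful.

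An atherosclerotic lesion holds smooth muscle cells, which make contractile proteins and matrix, together with macrophages and T cells that enter the wall. Macrophages secrete proteases and cytokines, T cells secrete interferon and display CD40 ligand, and smooth muscle cells attach to matrix through integrins, the paired alpha and beta chains that bind collagen, fibronectin or vitronectin. In RNA from a whole piece of wall, fewer cells of one type and less RNA per cell cannot be told apart.

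Each gene was read in 1 well per rabbit as a Ct, the number of PCR cycles after which its fluorescence passed the threshold. Expression is given as the log2 of the deposited ratio of a gene to its rabbit's reference level, a geometric mean over the Ct of the 5 reference genes. A step of 1 is a doubling. Of 756 GOI wells, 63 (8.33%) stood at the ceiling of 35 cycles, 22 of them undetermined, and 73 GOIs had a Ct under the ceiling in all 9 rabbits. Rabbit 20 stood apart: its reference level was 19.79 cycles, against 22.65 to 23.65 in the other 8, so the main counts and correlations below are also given without it. Leaving it out moved the mean log2 ratio of a gene by at most 0.34, with a median of 0.099 over 73 genes, and kept all of the 10 most abundant genes and 9 of the 10 least abundant. The smooth muscle label was checked on its markers. The contractile gene ACTA2, set against ACTB, GAPDH and LOC100346936, ranged from -1.51 in rabbit 10 to 1.97 in rabbit 14, and to 4.06 in rabbit 20. The value of rabbit 20 lay within the control range of 3.49 to 4.60, and those of the other 8 lay below it. On the same scale LDHA, a glycolytic enzyme, was -2.01 in rabbit 20 and -2.24 to -1.16 in the others, above the control range of -4.04 to -3.34 in every lesion. The smooth muscle gene TAGLN did not share the high ACTA2 of rabbit 20. There the Ct of ACTA2 was 2.58 cycles earlier than that of TAGLN (a difference of -2.58). It was 0.04 to 1.00 cycles later in the other 8 rabbits, and the control range of the difference was -0.32 to 0.40. On the scale used for ACTA2, TAGLN was 1.48 in rabbit 20 and -0.97 to 2.28 in the other 8. Its control mean there was 4.16 with an SD of 0.26. The array has no other contractile gene except ACTC1, which had a Ct under the ceiling in 2 of 9 rabbits.

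The protease gene CTSK and the smooth muscle gene TAGLN headed the order of abundance. Cathepsin K (CTSK), a collagen- and elastin-degrading protease of macrophages and osteoclasts, had the highest mean, 2.24 ± 0.38 on the log2 scale (SD, n = 9), or a ratio of 4.88 ± 1.24 to the reference level. It was lowest in rabbit 12 at 1.65, had a median of 2.35 and was highest in rabbit 4 at 2.80. Every lesion thus carried more CTSK signal than the reference level. TAGLN, which encodes the actin-binding protein transgelin, came next at 1.00 ± 0.83 (log2, SD, n = 9) and ran from -0.37 in rabbit 10 through a median of 0.96 to 2.18 in rabbit 14. The proteoglycan decorin (DCN) followed at 0.22, and TIMP1, an inhibitor of matrix metalloproteinases, at 0.15. These 4 genes were the ones with a mean above the reference level. With ACTA2 and LDHA left out of it, the mean of DCN was 0.08 and rested on rabbit 20, being -0.20 without it, while CTSK, TAGLN and TIMP1 stayed above 0 both ways. The beta 1 integrin chain ITGB1 (-0.09), the type I collagen chain COL1A2 (-0.29), the matricellular growth factor CTGF (-0.61), the gelatinase MMP2 (-1.46) and urokinase PLAU (-1.50) were also among the 10 most abundant.

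The low end of the order held cytokines and ligands. Going down, the 10 lowest of the 73 genes were LIF (-8.63), IL1B (-8.78), HBEGF (-9.11), IL2 (-9.24), IL6 (-9.28), WNT5A (-9.30), CD40LG (-9.45), the plasma and matrix protein vitronectin VTN (-9.65), TNF (-9.97) and WNT2 (-10.57), all as mean log2 ratios. From CTSK to WNT2 the means spanned 12.82 on the log2 scale, a ratio of 7207. The T cell genes were spread over this scale: IFNG, the macrophage-activating interferon, had a mean of -3.36, far above CD40LG and IL2, but whether its assay measures this transcript alone could not be checked without the amplicon. Its Ct lay between 21.67 and 27.30 cycles, and its control mean was -3.26. IL4 had a Ct under the ceiling in 4 of 9 rabbits. Ct values of different assays depend on their amplification efficiency, which was not measured here, so the order of levels is one of assay signals.

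**Figure D1:**
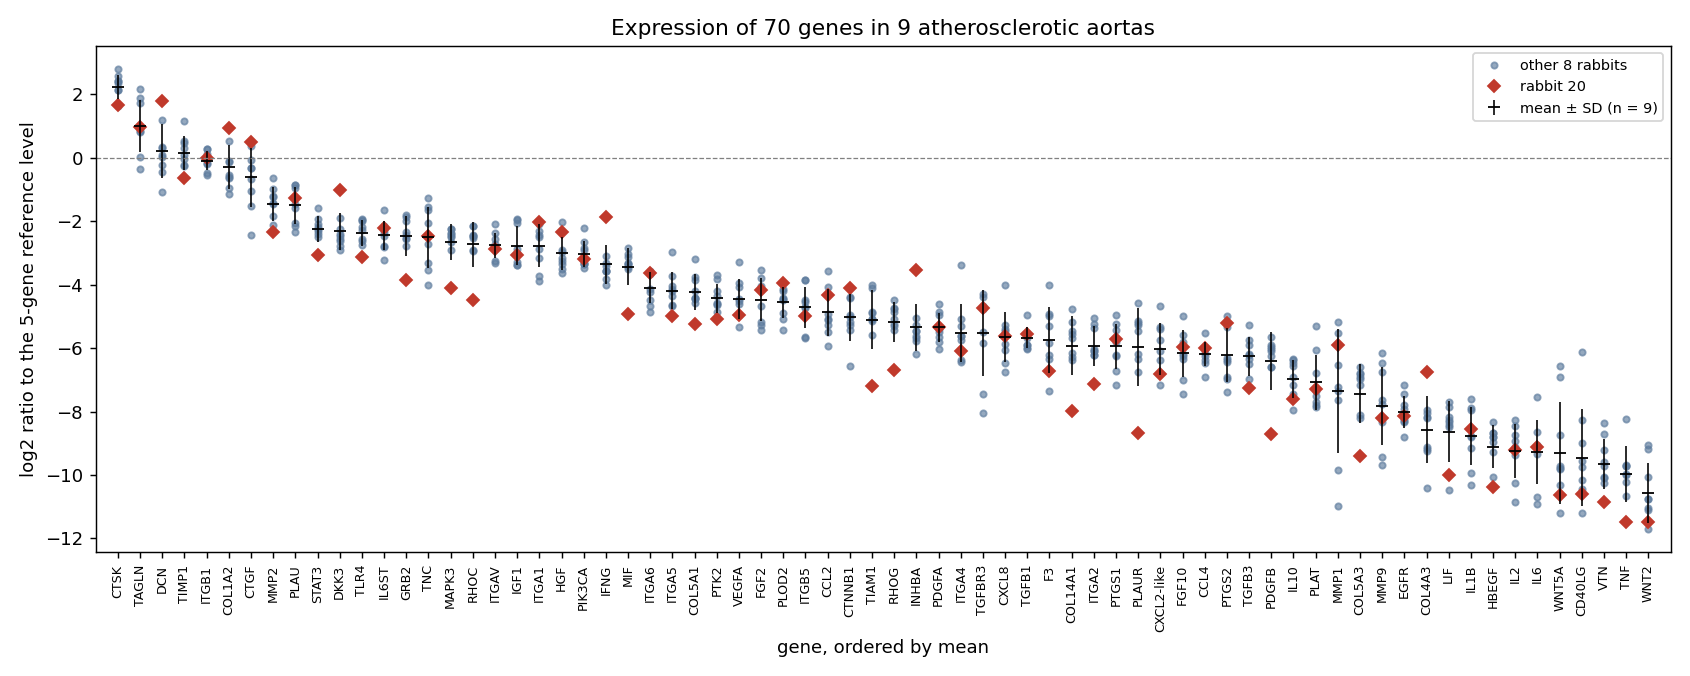
Log2 ratio to the 5-gene reference level (vertical axis) of 70 genes ordered by their mean (horizontal axis); circles are 8 atherosclerotic rabbits, red diamonds rabbit 20, and black marks the mean with SD over 9 rabbits. CTSK at 2.24 and WNT2 at -10.57 mark the ends, and rabbit 20 lies below the other 8 rabbits for 22 of these genes and above them for 10.

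The order was alike from rabbit to rabbit in its broad lines and unresolved in its fine steps. Of the 2628 pairs among the 73 genes, 1918 (73.0%) stood in the same order in all 9 rabbits. The genes among the 10 most abundant in every rabbit were CTSK, TAGLN, DCN, TIMP1, ITGB1 and COL1A2. Between neighbours in the order, however, 71 of 72 steps were smaller than the SD of the difference between the 2 genes over rabbits. The exception was the step from CTSK to TAGLN, with a gap of 1.24 against an SD of 1.01, and CTSK was the higher in 8 of 9 rabbits. Spearman's rho between a rabbit's order and the mean of the other 8 was lowest in rabbit 20 (0.924) and highest in rabbit 18 (0.973), as a description over 73 genes that share a rabbit's RNA. The order within a rabbit does not depend on the reference level.

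The genes outside the 73 had at least 1 well at the ceiling. No rabbit had a Ct under the ceiling for the fibrinogen chain FGA, the integrin chain ITGB6 or the growth factor EGF, and these 3 have only an upper limit. Among the others, IL1A and plasminogen (PLG) were under it in 2 rabbits each, CSF3 in 3, CSF2 in 7, and the collagenase-activating protease MMP3 and the CCN family member WISP3 in 8 each. The last 2 missed by 1 rabbit: the Ct of MMP3 ran from 28.11 to 36.01 cycles and that of WISP3 from 29.92 to 35.30.

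Lesions differed most in the interstitial collagenase MMP1. Its log2 ratio was lowest in rabbit 8 at -10.97, had a median of -7.21 and was highest in rabbit 10 at -5.17, a 56.1-fold range with an SD of 1.94. Both ends lay among the 8 rabbits other than rabbit 20. WNT5A, a secreted Wnt ligand, had an SD of 1.61 and ran from -11.20 in rabbit 2 to -6.55 in rabbit 12, with a median of -9.78. CD40LG, the T cell ligand that activates macrophages through CD40, had an SD of 1.52. It ran from -11.20 in rabbit 10 through a median of -9.76 to -6.12 in rabbit 12, a 33.7-fold range. The low ends of WNT5A and CD40LG were also wells near the ceiling, at 34.32 and 34.85 cycles. Rabbit 12 was thus the high end for both of these genes, as it was for 19 of all 73 genes against the deposited level. With ACTA2 and LDHA left out of that level, WNT5A was highest in rabbit 14 at -6.82 and was -6.96 in rabbit 12. CD40LG stayed highest in rabbit 12. The TGF-beta co-receptor TGFBR3 had an SD of 1.37, with a low end of -8.05 in rabbit 18, a median of -4.77 and a high end of -4.30 in rabbit 12. The gelatinase MMP9 had an SD of 1.24, from -9.68 in rabbit 8 through -7.78 to -6.14 in rabbit 2. The other 4 genes with an SD above 1 were PLAUR, the urokinase receptor (1.23), the basement membrane collagen chain COL4A3 (1.05), tissue factor F3 (1.04) and IL6 (1.02). The matrix glycoprotein tenascin C (TNC, 0.96) was the tenth. The SD of PLAUR rested on rabbit 20, at -8.67, and was 0.73 without it, and that of COL4A3 was 0.86 without it. The other 8 of these 10 genes had an SD above 1 without rabbit 20. Tissue factor, which starts coagulation, was lowest in rabbit 4 at -7.36, had a median of -5.84 and was highest in rabbit 14 at -4.01.

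Other genes were close to constant across the lesions. Among the 10 smallest SDs, ITGB1 had 0.30, with a lowest value of -0.55 in rabbit 10, a median of -0.08 and a highest of 0.28 in rabbit 12. The growth factor TGFB1 (0.33), CTSK (0.38), the chemokine CCL4 (0.39), the integrin chain ITGAV (0.39), the transcription factor STAT3 (0.40), the innate immune receptor TLR4 (0.41), the kinase subunit PIK3CA (0.41) and the cytokine co-receptor IL6ST (0.45) came next. CTSK thus combined the highest mean with one of the 10 smallest SDs. The median SD over the 73 genes was 0.682 (quartiles 0.576 and 0.915), or 0.567 without rabbit 20, and the median range was 4.37-fold (3.19-fold without it). The spread was wider at lower levels, with a median SD of 0.576 in the 24 most abundant genes, 0.638 in the middle 24 and 0.869 in the 25 least abundant (0.464, 0.516 and 0.814 without rabbit 20). The part of PCR error in this was not tested, since each gene had 1 well.

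With ACTA2 and LDHA left out of the reference level, 16 genes instead of 9 had an SD above 1, the median SD was 0.760 (0.672 without rabbit 20), and PLAUR was no longer among them. The 8 genes that entered were TAGLN, the matrix genes DCN and TNC, the growth factors CTGF and INHBA, the cytokines IL1B and IL2, and PTGS2. Without rabbit 20 the SD of INHBA was 0.51, that of DCN 0.71 and that of PTGS2 0.92, and the other 5 stayed above 1. TAGLN went from an SD of 0.83 to 1.07, CTGF from 0.93 to 1.24 and DCN from 0.86 to 1.07. ITGB1 and ITGAV, among the 10 least variable against the deposited level, had SDs of 0.56 and 0.65. TLR4 became the least variable gene at 0.23 and ran from -2.92 in rabbit 8 to -2.06 in rabbit 4, although without rabbit 20 GRB2 (0.18) was lower than TLR4 (0.24). MMP1 remained the most variable at 1.98 (1.94 without rabbit 20). Its highest value was then in rabbit 20 at -5.39, with -5.77 in rabbit 10. In the 63 genes with a Ct under the ceiling in all 18 rabbits of the series, the median SD was 0.642 in lesions and 0.564 in control aortas against the deposited level, and 0.529 in lesions without rabbit 20, so that the order of the groups turned on 1 rabbit. With ACTA2 and LDHA left out it was 0.748 in lesions (0.656 without rabbit 20) and 0.587 in control aortas. No test of spread was made.

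By function, over the genes measured in all 9 rabbits, the median SD against the deposited level was 0.87 in 7 macrophage and myeloid genes, 0.84 in 3 T cell genes, 0.86 in 9 structural matrix genes, 0.61 in 10 integrin and adhesion genes, 0.68 in 13 growth factors and 0.58 in 11 receptors and signalling genes, beside 0.682 over all 73. Without rabbit 20 these medians were 0.70, 0.90, 0.61, 0.52, 0.52 and 0.36, beside 0.567. On the level without ACTA2 and LDHA they were 0.73, 1.05, 0.81, 0.72, 0.72 and 0.40, beside 0.760, and without rabbit 20 on that level 0.62, 1.08, 0.70, 0.64, 0.72 and 0.37, beside 0.672, so that the macrophage genes lay above the median of all genes on the deposited level and below it on the other. No test was made between these groups. Within the macrophage genes the SD ran from 0.38 (CTSK) to 1.24 (MMP9), so that this list holds both a nearly constant gene and one of the most variable.

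Which genes moved together across lesions was examined with Pearson's r of log2 ratios over the 9 rabbits for all 2628 pairs, each with an exact two-sided permutation test over all pairings and Benjamini-Hochberg adjustment. Against the deposited level, 0 pairs (0%) passed an adjusted p of 0.05. The smallest adjusted p was 0.0887 by this exact permutation test. At an unadjusted p under 0.05 there were 373 pairs (14.2%), 259 of them positive (9.86%) and 114 negative (4.34%), and 204 of the 373 kept their sign and an unadjusted p under 0.05 without rabbit 20. Spearman's rho gave 0 pairs after adjustment and 284 before it. Among the largest r was that of the cytokine IL1B with ITGB1, at 0.97 (exact permutation p = 0.000135, adjusted p = 0.0887, rho 0.95; 0.97 without rabbit 20, 0.91 without the 2 farthest rabbits).

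With ACTA2 and LDHA left out of the reference level, 22 of 2628 pairs (0.837%) passed the adjusted threshold, 21 positive (0.799%) and 1 negative (0.0381%), and 15 of the positive ones lay in 1 group of integrin, smooth muscle, growth factor and inflammatory genes. At an unadjusted p under 0.05 there were 446 pairs (17%), 395 positive (15%) and 51 negative (1.94%). Spearman's rho gave 0 pairs after adjustment and 364 before it. Without rabbit 20 no pair passed the adjustment by the same exact test over 8 rabbits, and 434 had an unadjusted p under 0.05. With 8 rabbits the smallest exact permutation p is 2.48e-05, which for a lone pair becomes 0.0652 after adjustment, so a pair on its own could not pass and the count of 0 says little about stability. All 22 pairs were among those 434, and 21 of the 22 had an unadjusted p under 0.05 against the deposited level as well. All genes of a rabbit share its reference level, and the median r over all pairs was 0.25 on this level and 0.12 on the deposited one.

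**Figure D2:**
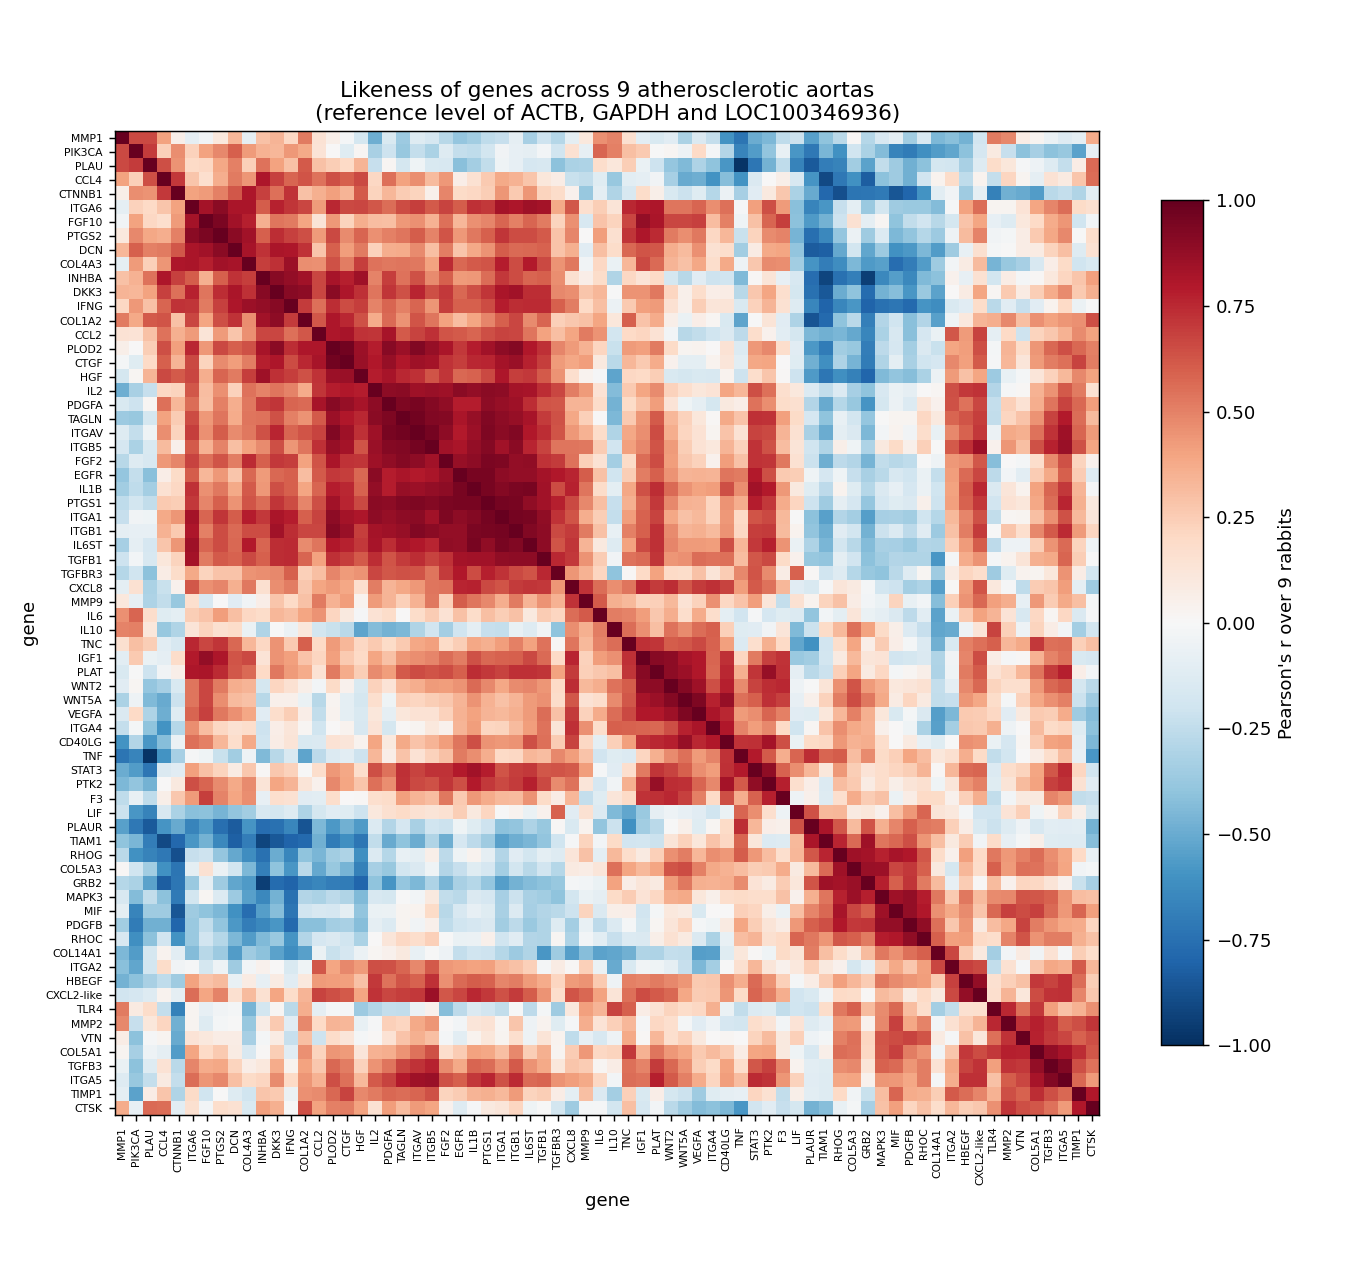
Pearson's r over 9 atherosclerotic rabbits for every pair of 70 genes, on the level set by ACTB, GAPDH and LOC100346936; genes on both axes are ordered by average linkage on 1 minus r, red is positive and blue negative. The dark red block in the upper left holds ITGB1, ITGA1, PTGS1, IL1B, FGF2, ITGAV, TAGLN and PDGFA, and the dark blue cell of PLAU with TNF is the pair at -0.98.

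The largest connected group had 11 genes and 15 of the 22 pairs. It held the integrin chains ITGA1, ITGAV, ITGB1 and ITGB5, TAGLN, the growth factors FGF2 and PDGFA, the epidermal growth factor receptor EGFR, the cytokine co-receptor IL6ST, the cyclooxygenase PTGS1 and the cytokine IL1B. PTGS1 took part in 5 pairs and ITGA1 in 4. On the level without ACTA2 and LDHA, TAGLN was lowest in rabbit 10 at -0.97, had a median of 0.75 and was highest in rabbit 14 at 2.28. ITGAV, the chain shared by vitronectin-binding integrins, was lowest in rabbit 10 at -3.92, had a median of -2.82 and was highest in rabbit 14 at -1.98. The same 2 rabbits therefore marked the ends for both genes, and rabbit 6 was the next lowest. Their r was 0.97 (exact permutation p adjusted to 0.0454, rho 0.93), 0.97 without rabbit 20, 0.90 without the 2 rabbits farthest from the median, and 0.96 against the deposited level.

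Among integrin chains, 2 partner pairs were called. ITGB5, which pairs with ITGAV, ran from -6.27 in rabbit 10 through a median of -4.64 to -3.76 in rabbit 14 and had an r of 0.96 with ITGAV (exact permutation test, adjusted p = 0.0454; 0.97 without rabbit 20). ITGA1, a collagen-binding chain, ran from -4.39 in rabbit 6 through -2.73 to -1.49 in rabbit 20, and had an r of 0.96 with its partner ITGB1 (exact permutation test, adjusted p = 0.0466; 0.94 without rabbit 20). Other alpha chains had lower r with ITGB1, with 0.93 for ITGAV and down to 0.32 for ITGA4 and 0.29 for ITGA2. ITGB1 ran from -1.15 in rabbit 10 through -0.18 to 0.51 in rabbit 20. Of all 45 pairs among the 10 integrin and adhesion genes measured in every rabbit, 2 passed the adjusted threshold. Over all 2628 pairs 22 did (0.837%). Of the 45, 15 (33.3%) had an unadjusted p under 0.05, beside 17% over all pairs. The median r was 0.48 in the 45 pairs, beside 0.25 over all. Against the deposited level the median was 0.27, beside 0.12.

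PTGS1, which encodes the constitutive cyclooxygenase, followed ITGA1 with an r of 0.95 (exact permutation test, adjusted p = 0.0454, rho 0.97; 0.97 without rabbit 20, 0.85 without the 2 farthest rabbits). It ran from -7.66 in rabbit 6 through -5.98 to -4.84 in rabbit 14. IL1B, the inflammatory cytokine, ran from -10.93 in rabbit 10 through -8.87 to -7.78 in rabbit 14 and had called pairs with PTGS1, IL6ST and ITGB1, with r between 0.94 and 0.95 (between 0.94 and 0.97 without rabbit 20). For each of the 11 genes of the group the lowest rabbit was 6 or 10, and the highest was 14, 20 or 2. These rabbits were ends for many genes on this level: over all 73, rabbit 6 or 10 was the lowest for 37, with median shifts from a gene's median of -0.37 and -0.55, and rabbit 14, 20 or 2 the highest for 47.

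The next group joined CTGF, PLOD2, the enzyme that hydroxylates collagen lysines for cross-linking, and DKK3, a secreted member of the Dickkopf family. CTGF was lowest in rabbit 10 at -3.03, had a median of -0.51 and was highest in rabbit 20 at 1.02. PLOD2 likewise ran from -6.03 in rabbit 10 through -4.56 to -3.43 in rabbit 20, and DKK3 from -3.50 in rabbit 10 through -2.57 to -0.48 in rabbit 20. The r of CTGF with PLOD2 was 0.96 (exact permutation test, adjusted p = 0.0454, rho 0.82; 0.95 without rabbit 20, 0.90 without the 2 farthest rabbits). That of PLOD2 with DKK3 was 0.90 (exact permutation test, adjusted p = 0.0454, rho 0.98; 0.91 without rabbit 20). Rabbits 10 and 20 were the ends for all 3 genes, as rabbit 10 was the lowest for 21 and rabbit 20 the highest for 21 of all 73 genes.

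Among the remaining called pairs, the growth factor FGF10 and the inducible cyclooxygenase PTGS2 had an r of 0.94 (0.95 without rabbit 20), and the fibronectin receptor chain ITGA5 and the growth factor TGFB3 an r of 0.92 (0.93 without it).

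The single negative pair joined PLAU, the plasminogen activator urokinase, with the cytokine TNF. PLAU was lowest in rabbit 12 at -2.76, had a median of -1.55 and was highest in rabbit 20 at -0.74. TNF was the reverse, highest in rabbit 12 at -8.66, with a median of -10.32, and lowest in rabbit 20 at -10.98. The r was -0.98 (exact permutation p = 1.38e-05, adjusted p = 0.0362, rho -0.97), and it was -0.98 without rabbit 20 and -0.96 without the 2 farthest rabbits. Against the deposited level it was -0.65 (exact permutation p = 0.0502), and against the mean Ct of the detected genes, in place of reference genes, -0.55, so this pair depends on the reference level.

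A difference between 2 Ct values of the same rabbit needs no reference level, and its SD over rabbits is small where 2 genes keep a fixed ratio. Over all 2628 pairs the median SD was 0.968 cycles (0.851 without rabbit 20), and 16 pairs were under 0.3 cycles. Among the tightest was the cytokine MIF with the kinase MAPK3, whose difference lay between 0.42 and 0.99 cycles with an SD of 0.208, and rabbit 20 was at 0.82, inside that range. The adaptor GRB2 with MAPK3 (SD 0.227), GRB2 with the assay listed as RHOG (0.227), whose annotation names Rac1, a small GTPase, and MIF with that assay (0.239) were also under 0.3 cycles. These signalling genes and MIF thus kept close ratios to each other, rabbit 20 included. All 4 were nevertheless lowest in rabbit 20 against the deposited reference level. In control aortas the SDs of these differences, in the order given, were 0.286, 0.265, 0.305 and 0.457 cycles. ITGAV also kept close ratios to PDGFA (0.232) and to ITGB1 (0.245). At the other end, the 10 widest pairs all held MMP1, up to an SD of 3.13 cycles with CD40LG.

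**Figure D3:**
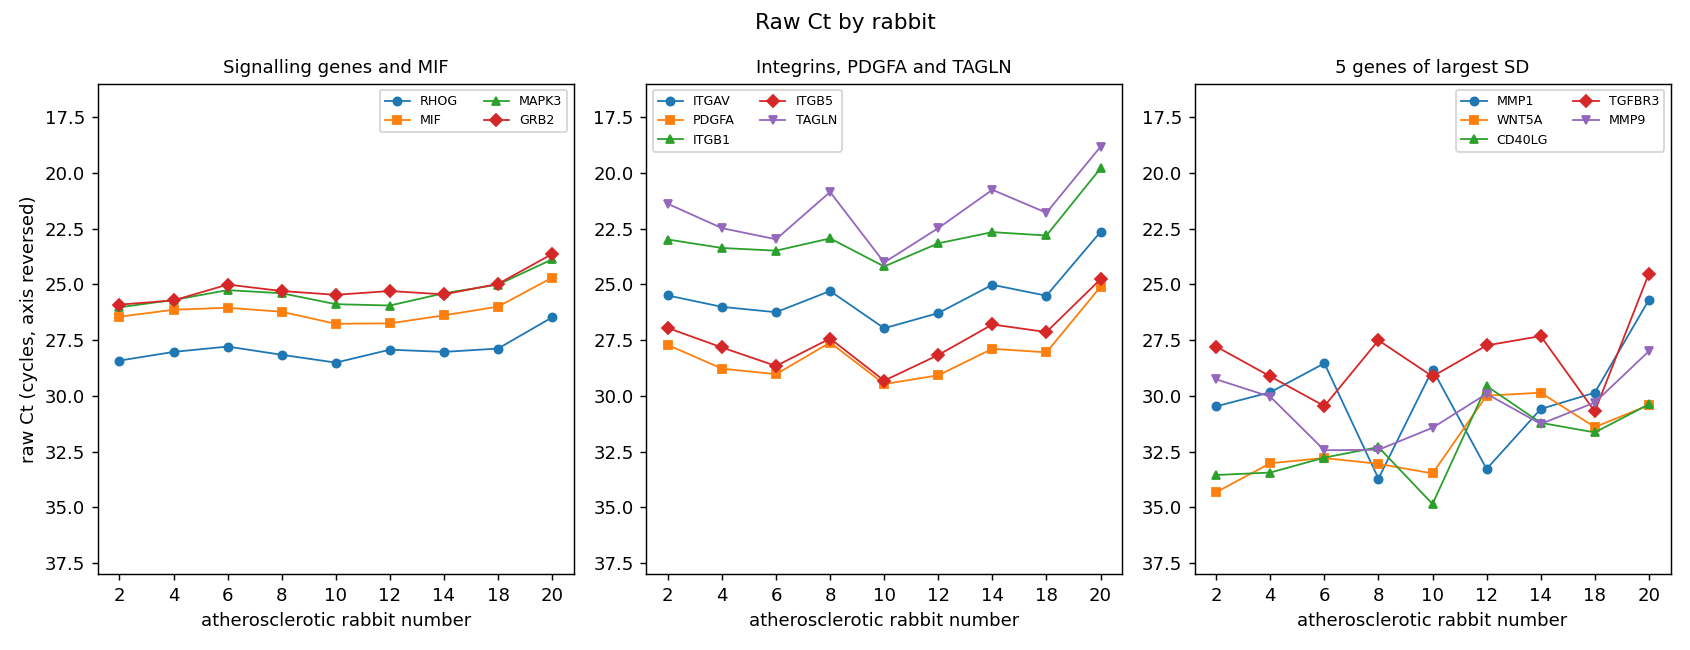
Raw Ct in cycles (vertical axis, reversed so that more transcript is higher) by atherosclerotic rabbit number (horizontal axis) for MIF and 3 signalling genes (left), 3 integrin chains with PDGFA and TAGLN (middle) and the 5 genes of largest SD (right); each point is 1 well. Lines in the left panel run nearly in parallel, with an SD of 0.208 cycles for MIF with MAPK3, whereas MMP1 crosses the others on the right.

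ACTA2 is itself a reference gene, so it was set against the 73 genes on the level of ACTB, GAPDH and LOC100346936, as was LDHA, in 146 exact permutation tests adjusted together. With ACTA2, 15 genes (20.5%) had a positive r past the adjusted threshold and 0 (0%) a negative one. At an unadjusted p under 0.05 there were 26 positive (35.6%) and 2 negative (2.74%), and Spearman's rho gave 7 genes after adjustment and 21 before it. The genes were 4 integrin chains (ITGA1, ITGB1, ITGAV and ITGA6), 6 growth factors (CTGF, INHBA, HGF, PDGFA, FGF2 and TGFB1), PLOD2, DKK3, IL6ST, PTGS1 and IFNG. Their r lay between 0.83 and 0.96, beside a median of 0.44 over all 73 genes.

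PLOD2 followed ACTA2 most closely, with an r of 0.96 (exact permutation p = 8.27e-06, adjusted p = 0.00121, rho 0.98). It was 0.97 without rabbit 20 and 0.95 without the 2 rabbits farthest from the median of ACTA2. DKK3 had an r of 0.96 (exact permutation test, adjusted p = 0.00181, rho 0.95), 0.92 without rabbit 20 and 0.87 without the 2 farthest. ITGA1 at 0.93 (exact permutation test, adjusted p = 0.0114) and ITGB1 at 0.92 (adjusted p = 0.0134) came next, with 0.94 and 0.96 without rabbit 20. The rabbits lowest in ACTA2, 10 and 6, were also the lowest for PLOD2 and DKK3. Without rabbit 20, 11 genes passed the adjusted threshold by the same exact permutation test, 8 of them shared with the 15 (PLOD2, DKK3, ITGA1, ITGB1, ITGAV, PDGFA, FGF2 and PTGS1), the others being TAGLN, ITGA5 and ITGB5. IFNG, CTGF, INHBA, IL6ST, HGF, ITGA6 and TGFB1 lost the call, with r between 0.72 and 0.88 in the 8 rabbits. The count also fell by over 1.5 times without most other rabbits: 1 gene, DKK3, passed without rabbit 6, 2 genes without rabbit 10, 4 without 18, 5 without 8, 6 without 4, and 8 each without 2 and 14, against 13 without rabbit 12. For all 15 genes the unadjusted exact permutation p stayed under 0.05 when any single rabbit was left out. The calls depended on the reference, however. Against the mean Ct of the detected genes 3 of the 15 kept the call, and 6 other genes passed as negative. There 9 of the 15 had an unadjusted exact permutation p under 0.05, and the smallest r was 0.38. Against ACTB alone all 15 kept the call, against LOC100346936 alone 10 and against GAPDH alone 6.

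TAGLN, the other smooth muscle gene, had an r of 0.79 with ACTA2 in all 9 rabbits (exact permutation test, adjusted p = 0.0901), which did not pass. Its r was 0.97 without rabbit 20, whose TAGLN of 1.48 was below that of rabbits 2, 8 and 14 while its ACTA2 was the highest. Both genes with an unadjusted negative p, the exchange factor TIAM1 (r = -0.76) and GRB2 (-0.74), had adjusted p of 0.136 and 0.157 by exact permutation, and their r was -0.37 and -0.30 without rabbit 20. Both passed as negative against the mean Ct of the detected genes. Of the 16 genes with a negative r, 12 had a positive one without that rabbit.

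**Figure D4:**
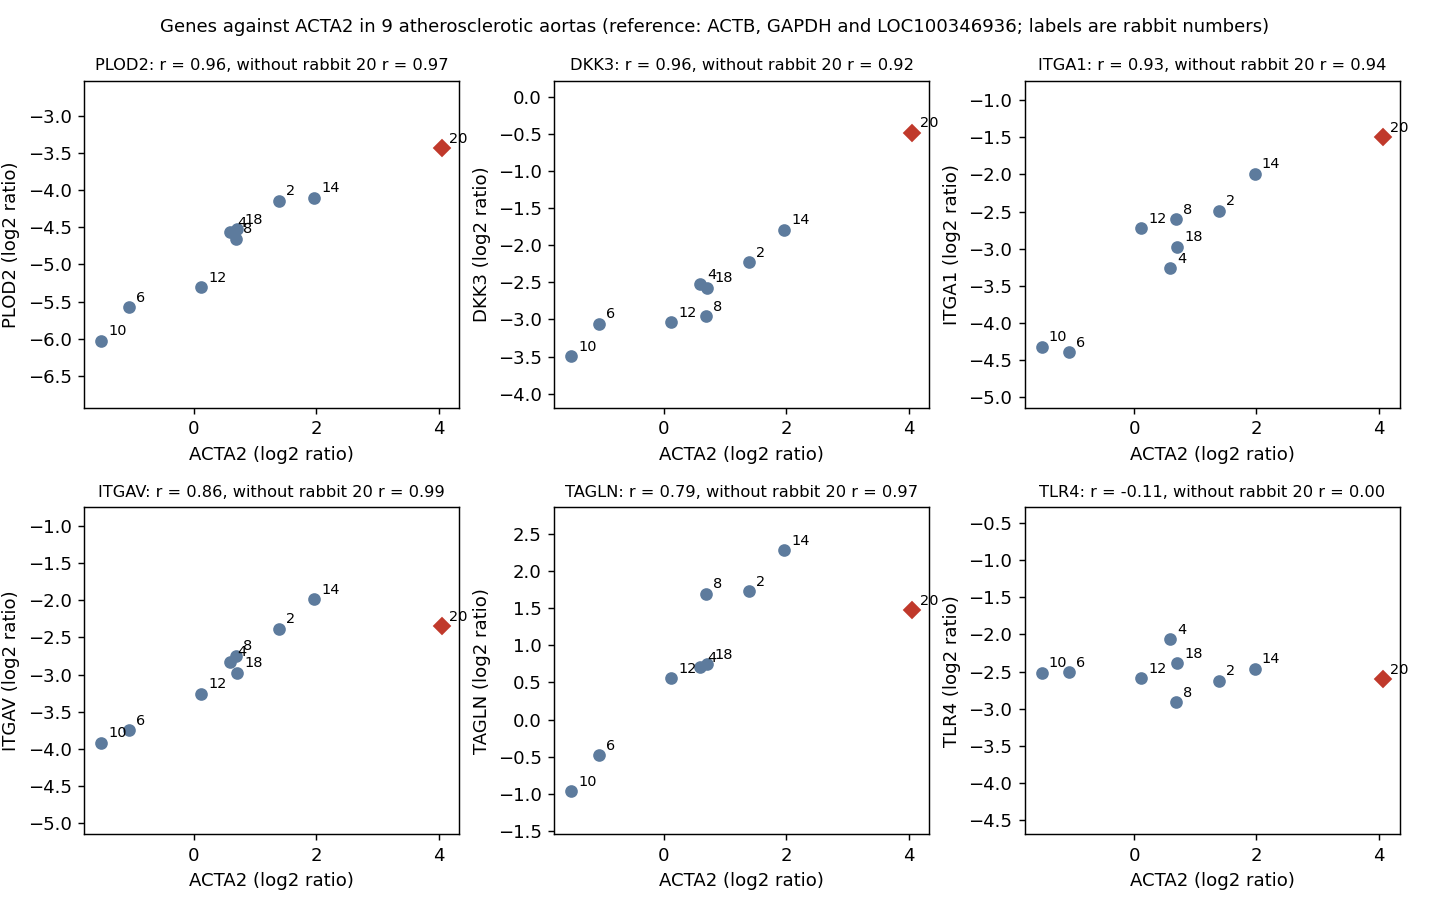
Log2 ratio to the level of ACTB, GAPDH and LOC100346936 of 6 genes (vertical axes, each spanning the same number of units) against ACTA2 (horizontal axes) in 9 atherosclerotic rabbits, labelled by rabbit number, with rabbit 20 as a red diamond. PLOD2, DKK3 and ITGA1 lie along a line that includes rabbit 20, ITGAV and TAGLN along one that leaves it below, and TLR4 is level at r = -0.11.

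Of the 7 macrophage genes measured in all rabbits, 0 passed with ACTA2 in either direction, beside 20.5% positive over all genes, with a median r of -0.11 (0.38 without rabbit 20) beside 0.44 (0.52) over all genes. TLR4, the receptor for lipopolysaccharide, had an r of -0.11, IL10 -0.16, TNF -0.12 (0.38 without rabbit 20), CTSK 0.32, MMP9 0.32, PLAUR -0.65 (-0.13 without rabbit 20) and IL1B 0.78 (0.89 without it), the last with an adjusted p of 0.0901 by exact permutation. IL1B passed without rabbit 12 and against ACTB alone. Over their 21 pairs the median r was -0.02, beside 0.25 over all pairs, whereas against the deposited level it was 0.27, beside 0.12. On the level without ACTA2 and LDHA 0 of the 21 passed the adjusted threshold, beside 0.837% of all pairs, and 1 (4.76%), PLAUR with TNF, had an unadjusted p under 0.05, beside 17%. A list of 4 fibroblast genes (COL1A2, COL5A1, COL14A1 and DCN) had a median r of 0.02 over 6 pairs (-0.14 against the deposited level), with 0 past the adjusted threshold and 1 (16.7%) at an unadjusted p under 0.05, close to the share of all pairs. On the list of T cell genes, the IFNG assay, with the doubt on its specificity given above, passed with ACTA2 in 9 rabbits (r = 0.89, exact permutation test, adjusted p = 0.0314), IL2 had an r of 0.75 (adjusted p = 0.131) and CD40LG 0.20. The r of IFNG was 0.76 without rabbit 20 (adjusted p = 0.172 by exact permutation), and rabbit 20 held its highest level. Without that rabbit the r of IL2 was 0.87 (adjusted p = 0.0801 by exact permutation) and that of CD40LG 0.44.

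The 15 genes included 4 of 10 integrin and adhesion genes, 6 of 13 growth factors, 1 of 9 structural matrix genes, 1 of 10 cytokines and 1 of 11 receptors and signalling genes, while 0 of 5 matrix proteases and inhibitors and 0 of 5 coagulation genes were among them. Beside this stands the 20.5% over all 73 genes, and no difference between the groups was tested. Proteases had a median r of 0.32 with ACTA2, coagulation genes 0.19, integrins 0.66 and growth factors 0.54, beside 0.44 over all genes. Without rabbit 20 these medians were 0.39, 0.43, 0.82 and 0.73, beside 0.52.

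LDHA varied little, with an SD of 0.33, and no gene passed with it: 0 positive (0%) and 0 negative (0%) of 73 after adjustment, and 3 positive (4.11%) and 0 negative at an unadjusted exact permutation p under 0.05. Spearman's rho gave 0 after adjustment and 1 before it. The 3 genes were CTSK (r = 0.78, exact permutation p = 0.0159, adjusted p = 0.111, rho 0.53; 0.92 without rabbit 20), MIF (0.74; 0.70 without rabbit 20, exact permutation p = 0.0708) and MMP2 (0.68; 0.70 without it). Rabbit 12 was lowest in both CTSK and LDHA. The count depends on the reference: 3 positive and 1 negative gene passed against the mean Ct of the detected genes and also against ACTB alone, 6 positive against GAPDH alone and 4 against LOC100346936 alone, with CTSK among the positive ones each time.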

How the data were processed

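The authors extracted RNA with TRIzol, transcribed it with the RT2 First Strand Kit, ran 40 PCR cycles (Mx3000P) and used GeneGlobe for the analysis. They deposited raw Ct values (a score in cycles, 1 well per gene and rabbit) and, per gene, a ratio to the reference level (2 raised to minus deltaCt, with late wells set to 35 cycles). The deposited fold changes are the authors' comparison and were not used. The group and number of each rabbit came from the labels, which name separate rabbits and no batch. Members, gene lists and the naming rule were chosen with earlier results of these data known. The rule took the 10 highest and lowest means, the 10 largest and smallest SDs, genes of called pairs, the 10 closest to ACTA2 and to LDHA, and smooth muscle, macrophage and T cell genes; further genes were named after their values were seen. Log2 ratios were used for SDs and for exact permutation tests of r over 73 genes. The Ct difference measure and the alternatives with ACTA2 and LDHA left out together with another change, or with 1 reference gene alone, were added after the data had been seen. Of 89 accessions, 62 were found in a RefSeq table of assembly mOryCun1.1 and 61 carried the same symbol. TAGLN is listed as LOC100009332, and the symbols RHOG, RHOC and COL4A3 differ from their deposited descriptions. Results for some measured genes are not reported here, although counts over all genes include them. The permutation step was tested on simulated data. Python 3.11.15, numpy 2.4.6, pandas 2.3.3, scipy 1.17.1, networkx 3.6.1 and matplotlib 3.10.9 were used. Precision is limited by single wells and 9 rabbits.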

Additional observations from a re-analysis of the deposited data

Results flagged for a closer look

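A rabbit far from the other 8 was found in 10 of 53 sets of 9 values, namely the named genes under the ceiling in every rabbit, the reference level with and without ACTA2 and LDHA, and these genes against the latter, examined with Dixon's criterion. For sets chosen without regard to their values chance would give about 2.6, but many of these genes were chosen for extreme values and all share a rabbit's reference level, so the number is no measure here, and rabbit 20 was that rabbit in 9 of the 10. Its reference level was 19.79 cycles (22.65 to 23.65 in the others) and 20.31 cycles with ACTA2 and LDHA left out (22.50 to 23.19). On the log2 scale against the deposited level it was high for IFNG at -1.88 (-4.01 to -3.10 in the others) and INHBA at -3.55 (-6.18 to -5.04). It was low for MAPK3 at -4.09 (-2.91 to -2.24), MIF at -4.91 (-3.49 to -2.85), PDGFB at -8.72 (-6.59 to -5.65), the assay listed as RHOC at -4.48 (-2.94 to -2.16) and that listed as RHOG at -6.69 (-5.42 to -4.49). TGFB1 was high in rabbit 12 at -4.96 (-6.04 to -5.51). With ACTA2 and LDHA left out of the reference level, 4 of these 8 genes no longer met the criterion: MIF, the RHOC and RHOG assays, and TGFB1. IFNG, INHBA, MAPK3 and PDGFB still did, with -1.36, -3.03, -3.57 and -8.20 in rabbit 20.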

How the results depend on the processing

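The 10 most abundant genes were the same when any 1 rabbit was left out (10 to 10 shared), and 70 to 71 neighbouring steps stayed within the spread. Genes with an SD above 1 numbered 8 to 10 without single rabbits, 17 when the reference level lacked ACTA2, 16 when it lacked LDHA too (15 also without rabbit 20) and 14 over all 84 genes. The 10 genes of largest SD kept 7 to 9 members without single rabbits, 6 with ACTA2 left out and 6 over all 84 genes. Against the deposited level, called pairs were 0 to 0 (positive 0 to 0, negative 0 to 0) without single rabbits, 39 with ACTA2 left out (37 positive, 2 negative), 22 with LDHA left out too (21 and 1), 2 against the mean of the detected genes (1 and 1) and 4, all positive, over 84 genes, 3 of them among FGA, ITGB6 and EGF, whose wells were all at the ceiling. With ACTA2 and LDHA left out, the 22 pairs became 0 with Spearman's rho (0 positive, 0 negative) and 0 to 4 without single rabbits (positive 0 to 3, negative 0 to 1), with 4 reached without rabbit 14, where over 8 rabbits a lone pair at the smallest exact permutation p has an adjusted p of 0.0652 and cannot pass; over all 84 genes there were 4 negative pairs. Each of the 22 kept its sign and an unadjusted exact permutation p under 0.05 in all these settings with both genes left out. Genes following ACTA2 were 1 to 13 without single rabbits (negative 0 to 0), 7 with Spearman's rho, 3 against the mean of the detected genes with 6 negative ones, 25 against ACTB alone and 6 against GAPDH alone. With LDHA they were 0 to 0 without single rabbits (negative 0 to 0), 3 against the mean of the detected genes (1 negative), 3 against ACTB alone (1 negative), 6 against GAPDH alone and 4 against LOC100346936 alone; CTSK was among them under each of these 4 references. No called pair and no gene called with ACTA2 changed direction under these settings. The cause of the changes with the reference level was not tested. No paired analysis was possible because the rabbits of the groups share no numbers and 1 group was described.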
